A study of Mus musculus with 8 samples.

Results

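The genes described here are 42 heat shock proteins, co-chaperones and heat shock factors, measured in CD8+ T cells of mice that lack ASC and of wild type mice. They were chosen by gene symbol from lists of HSP70, HSP90, HSP110 and mitochondrial chaperones, J proteins, BAG proteins and their partners, out of 16593 genes named on the array. Of the 42 genes, 37 had at least 1 probe under their symbol, with 52 probes in all. No probe carried the symbols Hspa1b, Hsp90ab1, Dnajb11, Hsf1 or Stub1 in the annotation used here, so these 5 genes were not analysed. The chosen genes are mainly cytosolic, but Hspa9, Hspd1, Hspe1 and Trap1 encode mitochondrial chaperones and Dnajb11 a J protein of the endoplasmic reticulum.

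The study held 4 ASC KO samples and 4 ASC WT samples, each hybridised to 1 single-colour Illumina MouseRef-8 bead array. Both groups were labelled as CD8+ T cells of the C57BL/6 strain and carried the genotype labels knock out and wild type. ASC is the adaptor encoded by Pycard that assembles inflammasomes. The sources used here do not give the design of the knockout allele, the age of the mice, any stimulation or any batch. Nothing in the labels says that replicates are different mice. Each p-value therefore covers only the spread among the 8 samples, and part of it may be technical.

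Chaperones bind unfolded or newly made proteins and keep them from clumping until they fold. HSP70 proteins do so in cycles of ATP use that J proteins start and exchange factors, among them the BAG and HSP110 proteins, complete. HSP90 then matures many kinases and steroid receptors, with co-chaperones handing clients over from HSP70. Under heat or other protein stress the transcription factor HSF1 induces many of these genes at once, and T cells raise several of them as they are activated and start to grow.

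Pycard (probe ILMN_2936476), the check of the genotype labels, was detected on 0 of 4 ASC KO and 4 of 4 ASC WT arrays. Its expression was at least 12.7-fold lower in ASC KO (limma adjusted p = 1.16e-09). Its fitted log2 difference was -4.10, and -1.98 without background correction. A probe counted as detected on an array where its deposited detection p-value was under 0.05, which held for 44.9% to 45.4% of all probes on the ASC KO arrays and 42.8% to 44.5% on the ASC WT arrays. This share did not overlap between groups, and the mean deposited signal was 499 to 521 in ASC KO, against 518 to 582 in ASC WT. The part of these differences in the results was not tested. Testing was limited to probes detected on 4 or more arrays. Among markers of the labelled cell type, Cd8b1 was bright on all 8 arrays, with signals of 24822.8 to 28450.9 in ASC KO and 27245.2 to 31080.8 in ASC WT at probe ILMN_2741169. The single Cd8a probe was detected on 0 of 8 arrays. In such bulk samples, fewer cells of a type and less RNA per cell cannot be told apart.

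Bag3 and Hspa2 were the 2 chaperone genes that passed the test of a difference between the groups, and both were higher in ASC KO. Bag3, a co-chaperone that releases clients from HSP70 and directs some of them to autophagy, was 1.70-fold higher. Hspa2, an HSP70 best known from male germ cells, was 1.46-fold higher at the dimmer of its 2 probes, which lies near background. The brighter Hspa2 probe was 1.27-fold higher and did not pass. No member was called lower. The constitutive HSP70 gene, Hspa8, and the J protein gene Dnajb1, which HSF1 induces strongly, were within 0.1 of 0 on the log2 scale. Hsp90aa1, the stress-inducible HSP90, and Hspd1, the mitochondrial chaperonin, had lower values in ASC KO at 1 probe each, with no overlap between groups, but did not pass the threshold.

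A test of difference was possible for 33 of the 42 genes, at 40 probes. With limma's test and Benjamini-Hochberg adjustment over all 11270 tested probes, 2 of the 33 genes, or 6.06%, passed an adjusted p of 0.05, each at 1 probe. Of all 7759 tested genes, 1.13% passed, 0.619% as higher and 0.516% as lower, and 0.843% of all probes did. At an unadjusted limma p under 0.05, 3 member probes were higher and 4 lower. Of all probes 13% did so, 6.61% as higher and 6.4% as lower. The groups did not overlap at 6 of the 40 member probes, or 15%, with 3 higher and 3 lower. Of all probes 8.12% did not overlap, 3.91% as higher and 4.21% as lower. At the brightest tested probe of each gene, 21 of 33 differences lay below 0, with a median of -0.04, while the median over all tested genes was 0.00027. In 27 of 33 genes the difference was under 0.2 in size, a share of 81.8% against 77.8% of all tested genes.

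**Figure D1:**
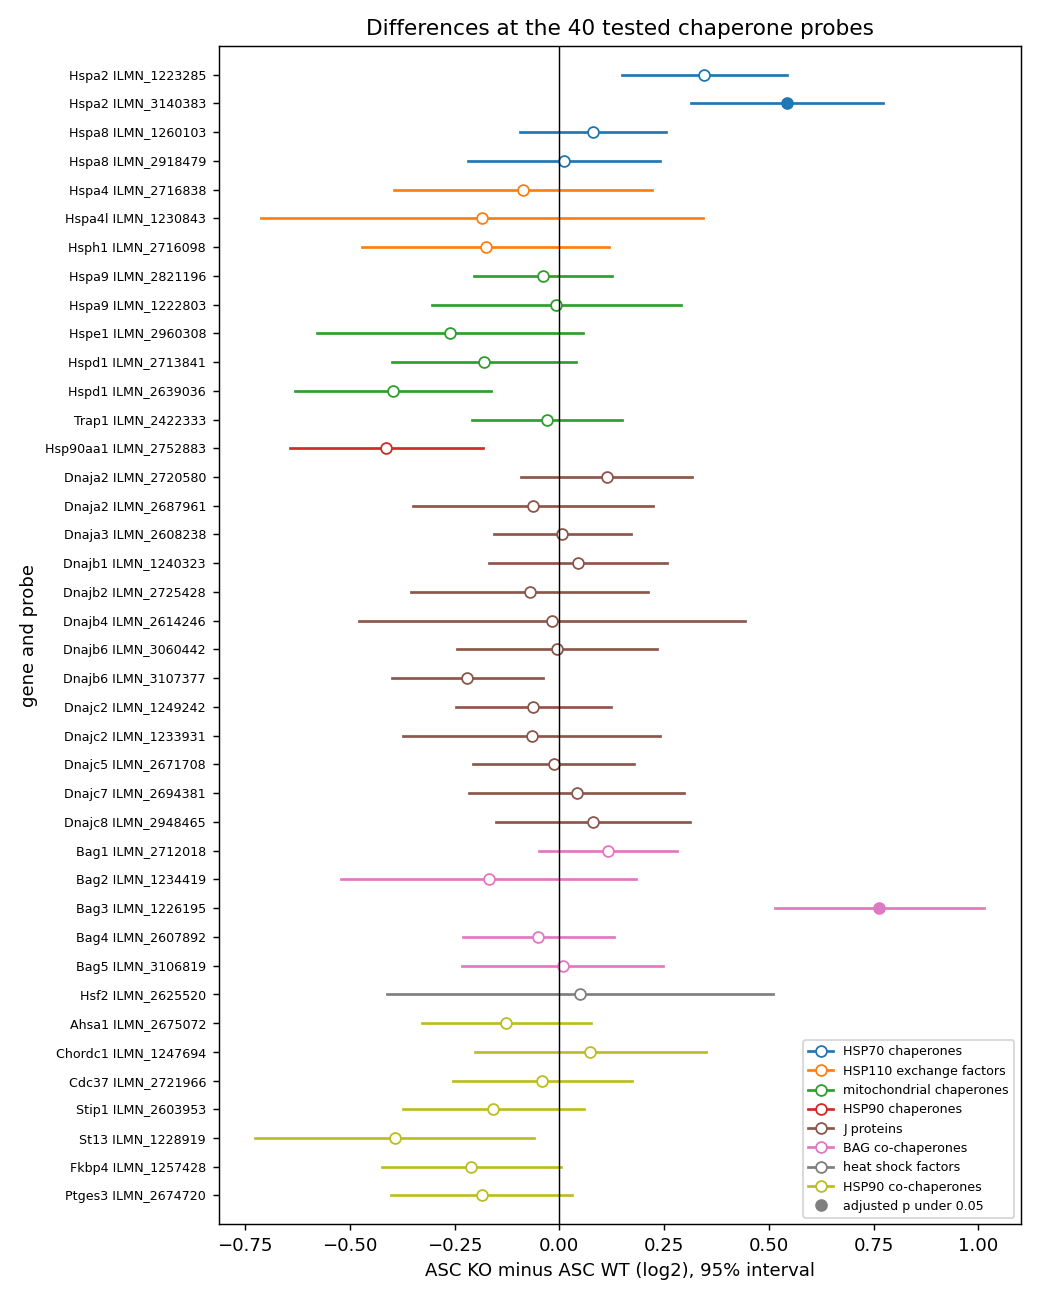
Difference of the mean log2 level, ASC KO minus ASC WT, at the 40 tested chaperone probes, with its 95% interval from limma; colours mark the role of the gene and filled points an adjusted p under 0.05. Only Bag3 and 1 probe of Hspa2 are filled, both to the right of 0, while most intervals include 0.

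The sequence before the start of a few members is given for reference to the heat shock element, the site HSF1 binds, made of the unit GAA in alternating orientation. The perfect element searched was GAANNTTCNNGAA on either strand, in the 250 bases before each annotated start. It occurred in 0.466% of 32851 such windows of all genes and in 4 of the 43 windows of the 33 members that had any, those of Hspe1, Hspd1 and Dnajb6. These windows are not separate stretches: the Dnajb6 matches are the same bases in overlapping windows, and Hspe1 and Hspd1 share theirs. The shorter forms GAANNTTC and TTCNNGAA, which are part of the longer one, occurred in 12.8% of all windows and in 14 of the 43, from 12 members. The windows of the 2 genes that were higher, Bag3 and Hspa2, held neither form. A match describes letters and not a used site. The lack of a match says nothing about imperfect sites or sites outside the 250 bases. The bases below are from RefSeq on build GRCm38.p6, 5′ to 3′ on the strand of the gene, with matches to the perfect element in capitals. They show Bag3 (chr7:128523333-128523582, plus strand), Hspa2 (chr12:76404120-76404369, plus strand), Hspe1 (chr1:55087898-55088147, plus strand) and Dnajb6 (chr5:29735648-29735897, plus strand).
Bag3: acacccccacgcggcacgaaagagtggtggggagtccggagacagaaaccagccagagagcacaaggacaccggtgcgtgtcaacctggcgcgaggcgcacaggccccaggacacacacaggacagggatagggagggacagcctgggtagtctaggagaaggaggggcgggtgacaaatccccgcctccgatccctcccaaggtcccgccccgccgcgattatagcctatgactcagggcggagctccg
Hspa2: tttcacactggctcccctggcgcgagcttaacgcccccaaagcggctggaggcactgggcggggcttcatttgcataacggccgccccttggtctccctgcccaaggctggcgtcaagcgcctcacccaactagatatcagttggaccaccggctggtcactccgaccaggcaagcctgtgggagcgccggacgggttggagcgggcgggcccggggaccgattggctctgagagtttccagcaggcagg
Hspe1: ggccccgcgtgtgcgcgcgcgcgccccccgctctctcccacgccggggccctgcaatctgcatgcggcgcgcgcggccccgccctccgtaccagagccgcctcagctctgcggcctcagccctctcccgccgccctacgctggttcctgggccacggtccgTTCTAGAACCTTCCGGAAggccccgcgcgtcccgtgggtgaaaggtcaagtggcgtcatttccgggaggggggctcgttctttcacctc
Dnajb6: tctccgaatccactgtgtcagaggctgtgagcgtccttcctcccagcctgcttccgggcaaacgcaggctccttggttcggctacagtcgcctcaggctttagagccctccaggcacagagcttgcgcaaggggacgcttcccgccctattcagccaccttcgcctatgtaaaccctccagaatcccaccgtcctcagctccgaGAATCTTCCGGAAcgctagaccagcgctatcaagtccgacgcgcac
The capitals of Hspe1 are 2 overlapping matches. The same bases, read on the other strand, lie in a window of Hspd1, which runs in the opposite direction from the same stretch of chromosome 1.

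Among the BAG co-chaperones, which bind HSP70 through a shared domain and speed its release of nucleotide, Bag3 rose and the other 4 did not pass the test. Bag3 (probe ILMN_1226195) had log2 levels of 9.86, 9.99, 10.31 and 9.96 in ASC KO, against 9.15, 9.20, 9.44 and 9.29 in ASC WT. Every ASC KO array lay above every ASC WT array, and replicate 3 was the highest of each group. The deposited signals, before any correction, were 1020.3, 1012.7, 1339.8 and 1060.5 in ASC KO, against 739.4, 732.8, 772.4 and 752.4 in ASC WT. In log2 units the difference was 0.76 ± 0.112 (SE, n = 4 per group, 95% interval 0.51 to 1.01, limma adjusted p = 0.0148). Leaving out ASC WT replicate 2 ended the call at a difference of 0.74 (limma adjusted p = 0.0569), and without each other array in turn the adjusted p stayed between 0.019 and 0.049. Bag1, which also binds the anti-apoptotic protein BCL2, differed by 0.12 ± 0.074, and Bag5 by 0.0077 ± 0.108. Bag2, an inhibitor of the ubiquitin ligase encoded by Stub1, was at -0.17 ± 0.158 and Bag4 at -0.05 ± 0.0809 (SE, n = 4 per group for each).

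**Figure D2:**
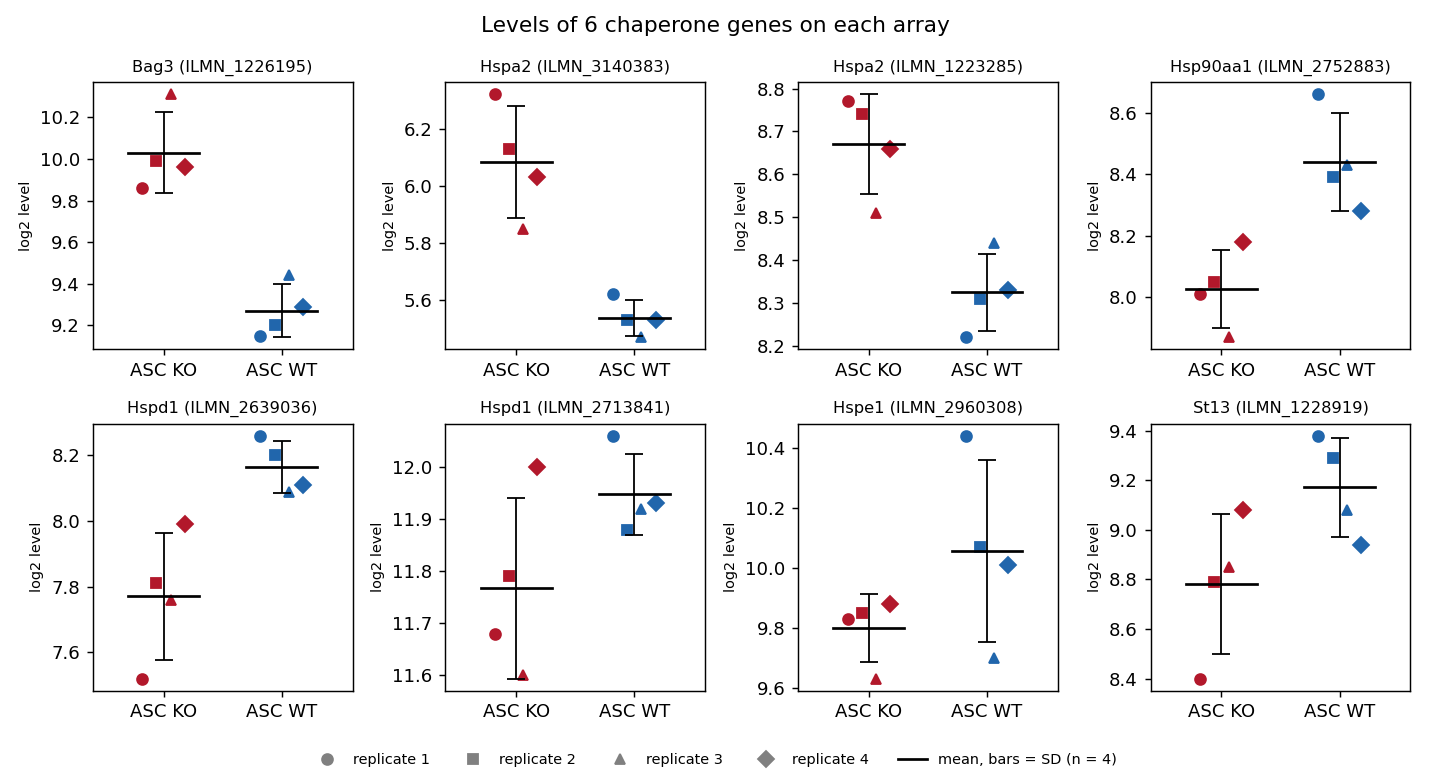
Normalized log2 level on each array for 6 chaperone genes at 8 probes, ASC KO left and ASC WT right, with 1 symbol per replicate number, the mean as a horizontal line and the SD as bars (n = 4). The ASC KO arrays of Bag3 and of both Hspa2 probes lie above all ASC WT arrays, those of Hsp90aa1 and of Hspd1 probe ILMN_2639036 lie below them, and the groups overlap at Hspd1 probe ILMN_2713841, Hspe1 and St13.

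Bag3 lies on chromosome 7 close to Pycard, with 4 tested genes between them in the order of the annotation: Itgad, Rusf1, Rgs10 and Tial1. Of these, Itgad (an integrin gene) and Rgs10 (a regulator of G protein signalling) were called lower in ASC KO, at -1.69 ± 0.0986 and -2.56 ± 0.268 on the log2 scale. Rusf1 was at -0.24 ± 0.127 and Tial1, the nearest tested gene on that side, at 0.02 ± 0.107. On the other side of Bag3, Inpp5f was at 0.30 ± 0.104 and Mcmbp at 0.05 ± 0.0797, neither called. Farther out on that side, Wdr11 was called lower at -0.56 ± 0.105 and Plekha1 higher at 0.54 ± 0.085 (SE, n = 4 per group for each). Among the 10 tested genes nearest to Bag3 on each side, Pycard included, 1 was called higher and 4 lower. Over all tested genes 1.13% were called, in either direction. The called differences near Bag3 ran in both directions, and the 20 genes had a median of -0.07. On the far side of Pycard, within 20 Mb of it, Plk1 (-5.15), Apobr (-1.77) and Kdm8 (-0.48) were called lower and Gdpd3 (5.20) higher. All ASC KO samples carry the knockout allele together with the chromosome stretch around it, so for Bag3 the loss of ASC and a difference in that stretch cannot be told apart.

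**Figure D3:**
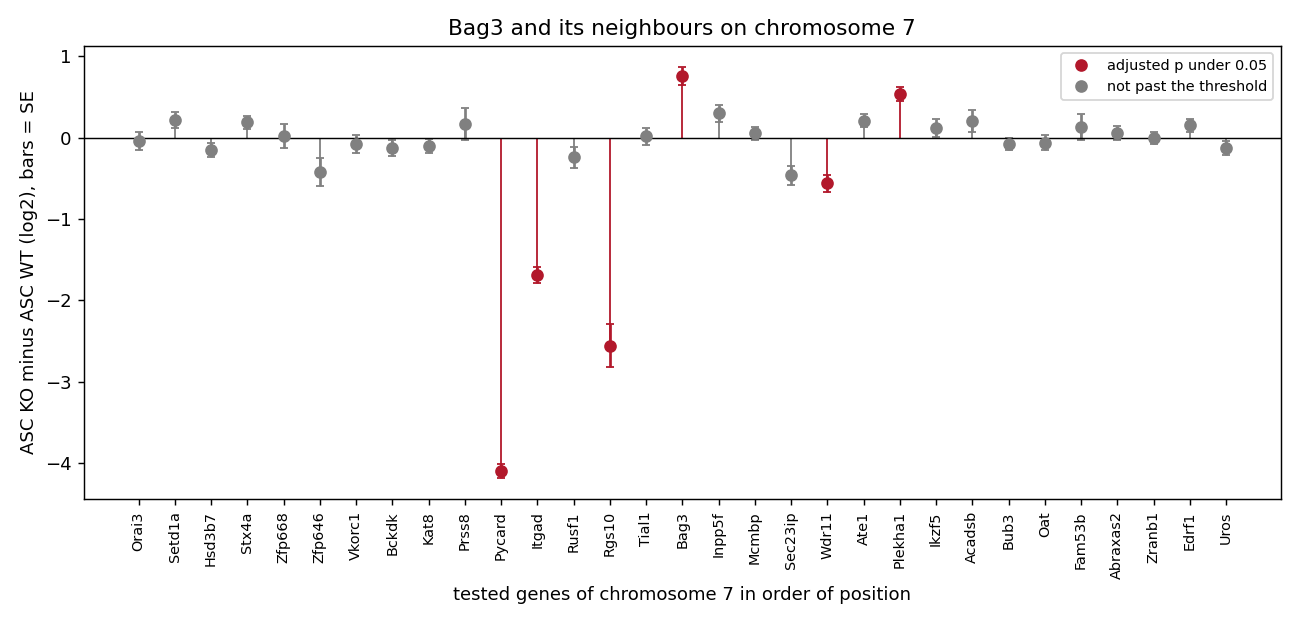
Difference of the mean log2 level, ASC KO minus ASC WT, with its SE, for the tested genes of chromosome 7 within 15 places of Bag3, in order of position and at each gene's brightest probe. Red points mark an adjusted p under 0.05; Pycard, Itgad, Rgs10 and Wdr11 lie below 0 and Bag3 and Plekha1 above it, with uncalled genes between them.

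Of the cytosolic HSP70 genes, Hspa2 was higher and Hspa8 did not differ beyond the spread between samples. The dimmer Hspa2 probe, ILMN_3140383, had log2 levels of 6.32, 6.13, 5.85 and 6.03 in ASC KO, against 5.62, 5.53, 5.47 and 5.53 in ASC WT. It rose by 0.54 ± 0.103 (SE, n = 4 per group, 95% interval 0.32 to 0.77, limma adjusted p = 0.0458). Its groups did not overlap, and ASC KO replicate 1 was the highest array. The brighter Hspa2 probe, ILMN_1223285, had log2 levels of 8.77, 8.74, 8.51 and 8.66 in ASC KO, against 8.22, 8.31, 8.44 and 8.33 in ASC WT. Here too the groups did not overlap, and the difference of 0.35 ± 0.0883 had the same sign but did not pass (limma adjusted p = 0.12). Hspa2 lies on chromosome 12, away from Pycard.

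The Hspa2 call depended on the processing. Without background correction the dimmer probe was at 0.19 (limma adjusted p = 0.0995), while the brighter one passed at 0.27 (limma adjusted p = 0.0422). Leaving out any single array other than ASC KO replicate 3 ended the call at the dimmer probe, with differences of 0.47 to 0.57 and limma adjusted p-values of 0.079 to 0.139. Without ASC KO replicate 3 it was 0.62 and the call held, and the brighter probe passed in none of these 8 fits.

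Hspa8, the HSP70 that also strips clathrin from vesicles, was measured by 2 probes. At probe ILMN_1260103 its log2 levels were 14.93, 14.81, 14.86 and 14.86 in ASC KO, against 14.65, 14.86, 14.84 and 14.80 in ASC WT. The groups overlapped, and the difference was 0.08 ± 0.0786 (SE, n = 4 per group, 95% interval -0.09 to 0.26). The other probe, ILMN_2918479, differed by 0.01 ± 0.103, with a sign that turned under median scaling (-0.012). The heat-inducible Hspa1a, whose near-identical copy Hspa1b could share its probe, was detected on 1 of 4 ASC KO and 0 of 4 ASC WT arrays and was not tested. Its deposited signals were 121.6, 127.6, 135.3 and 133.2 in ASC KO, against 129, 128.9, 119.2 and 112.7 in ASC WT. Hspa14, a ribosome-associated HSP70, was detected on 0 of 8 arrays.

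The HSP110 genes, whose products exchange nucleotide on HSP70, all had differences below 0 and none passed. Hsph1, the heat-inducible member, had log2 levels of 10.25, 10.76, 10.82 and 10.85 in ASC KO, against 10.81, 10.78, 10.99 and 10.81 in ASC WT. ASC KO replicate 1 was well below the other ASC KO arrays. The difference was -0.18 ± 0.133 (SE, n = 4 per group, limma adjusted p = 0.628), and without that array it was -0.04. Hspa4 was at -0.09 ± 0.138, and Hspa4l, a dim probe, at -0.18 ± 0.237. The small heat shock protein gene Hspb1 was detected on 1 of 4 ASC KO and 0 of 4 ASC WT arrays and was not tested.

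For HSP90, only Hsp90aa1 could be tested, since its partner Hsp90ab1, the constitutive form, had no probe here. Hsp90aa1 (probe ILMN_2752883) had log2 levels of 8.01, 8.05, 7.87 and 8.18 in ASC KO, against 8.66, 8.39, 8.43 and 8.28 in ASC WT. Every ASC KO array was below every ASC WT array. The difference was -0.41 ± 0.103 (SE, n = 4 per group, 95% interval -0.64 to -0.18), with a limma adjusted p of 0.115. The call was made with other settings: at -0.31 without background correction (limma adjusted p = 0.0408) and with a variance model that follows intensity (limma adjusted p = 0.0425). A second Hsp90aa1 probe was detected on 0 of 8 arrays.

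The HSP90 co-chaperones, 7 of 8 tested, had 6 differences below 0 and 1 above, and none passed. St13, whose product stabilises client-bound HSP70, had log2 levels of 8.40, 8.79, 8.85 and 9.08 in ASC KO, against 9.38, 9.29, 9.08 and 8.94 in ASC WT. The groups overlapped, since ASC KO replicate 4 was above ASC WT replicate 4. The difference was -0.39 ± 0.15 (SE, n = 4 per group, limma adjusted p = 0.296), and without ASC KO replicate 1, the lowest array, it was -0.27. Fkbp4, an immunophilin of steroid receptor complexes, was at -0.21 ± 0.096. Ptges3, the p23 co-chaperone of the late HSP90 complex, was at -0.19 ± 0.0967 and Stip1, which bridges HSP70 and HSP90, at -0.16 ± 0.0969. Ahsa1, the activator of the HSP90 ATPase, was at -0.13 ± 0.0905 and the kinase adaptor Cdc37 at -0.04 ± 0.096, with Chordc1 at 0.07 ± 0.124 (SE, n = 4 per group for each).

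The mitochondrial chaperones all had differences below 0 at their brightest probe, and none passed. Hspd1 and Hspe1, which encode the barrel and the lid of the mitochondrial chaperonin, share the bidirectional stretch shown above. At the dimmer Hspd1 probe, ILMN_2639036, log2 levels were 7.52, 7.81, 7.76 and 7.99 in ASC KO, against 8.26, 8.20, 8.09 and 8.11 in ASC WT. The groups did not overlap, and the difference was -0.40 ± 0.105 (SE, n = 4 per group, limma adjusted p = 0.129). At the brighter Hspd1 probe, ILMN_2713841, levels were 11.68, 11.79, 11.60 and 12.00 in ASC KO, against 12.06, 11.88, 11.92 and 11.93 in ASC WT. Here ASC KO replicate 4 lay among the ASC WT arrays, and the difference was -0.18 ± 0.0991 (limma adjusted p = 0.491).

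Hspe1 had log2 levels of 9.83, 9.85, 9.63 and 9.88 in ASC KO, against 10.44, 10.07, 9.70 and 10.01 in ASC WT. The groups overlapped because of ASC WT replicate 3, and the difference was -0.26 ± 0.143 (SE, n = 4 per group, limma adjusted p = 0.489). Without ASC WT replicate 1, the highest array, the Hspe1 difference was -0.13, and without ASC WT replicate 3 it was -0.38. Hspa9, the mitochondrial HSP70, was at -0.04 ± 0.074 and -0.0068 ± 0.134 at its 2 probes, and Trap1, the mitochondrial HSP90, at -0.03 ± 0.0807. Processed copies of genes such as Hspd1, Hspe1 and Hspa8 exist in the genome, and probe sequences were not used here, so binding of such copies to these probes was not tested.

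The J proteins, which deliver clients to HSP70 and trigger its ATPase, had 10 of 12 genes tested, with 5 differences above 0 and 5 below, and none passed the threshold. Dnajb1 had log2 levels of 11.45, 11.44, 11.68 and 11.68 in ASC KO, against 11.37, 11.54, 11.63 and 11.54 in ASC WT. The groups overlapped, and the difference was 0.04 ± 0.0955 (SE, n = 4 per group, 95% interval -0.17 to 0.26). The 10 genes ranged from -0.07 for Dnajb2 to 0.11 for Dnaja2 at their brightest probes. Between these were Dnaja3, a mitochondrial J protein, at 0.007 and the ribosome-bound Dnajc2 at -0.06. Dnajc5, found on secretory vesicles, was at -0.01, and Dnajc7, Dnajc8 and Dnajb4 were at 0.04, 0.08 and -0.02. The tested Dnajb4 probe was dim, detected on 3 of 4 ASC KO and 1 of 4 ASC WT arrays. A dimmer Dnaja2 probe, ILMN_2687961, lay on the other side of 0, at -0.06 ± 0.129. Dnajb6, a J protein that holds back protein aggregation, had 2 probes that disagreed. ILMN_3107377 was at -0.22 ± 0.081 with no overlap between groups (limma adjusted p = 0.276), and the brighter ILMN_3060442 at -0.005 ± 0.108. Dnaja1 had 2 probes, detected on 2 and 0 of the 8 arrays, and was not tested. Of the 2 heat shock factors among the members, Hsf1 had no probe and Hsf2 was at 0.05 ± 0.207.

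The members known to be induced by heat were looked at as a group by their counts. Of 18 such genes 13 were tested, and 9 of the 13 differences lay below 0, with a median of -0.16. Among the other 20 tested members 12 lay below 0, with a median of -0.02. Bag3 was called higher. Hspa8, counted in this group although it is also expressed constitutively, was at 0.08, Chordc1 at 0.07 and Dnajb1 at 0.04, none of them called. Hsph1, Hsp90aa1, Hspd1, Hspe1, Fkbp4, Stip1, Ahsa1, Hspa4l and Dnajb4 had differences below 0 that did not pass.

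Within a group, single arrays stood lower or higher over the chaperones than over all genes. ASC KO replicate 1 was the lowest ASC KO array for 14 of 33 members, or 42.4%, against 25.7% of all tested genes. ASC KO replicate 4 was the lowest for 1 member, or 3.03%, against 25.6% of all tested genes, and the highest for 12. For heat-inducible members the median deviation from the group mean was -0.13 on ASC KO replicate 1 and 0.12 on ASC KO replicate 4. Over all tested genes it was 0.0047 and -0.0021 on these arrays. In ASC WT each array was the lowest for 7 to 9 members. The median SD within a group was 0.137 for members and 0.146 for all genes in ASC KO, and 0.119 and 0.132 in ASC WT.

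**Figure D4:**
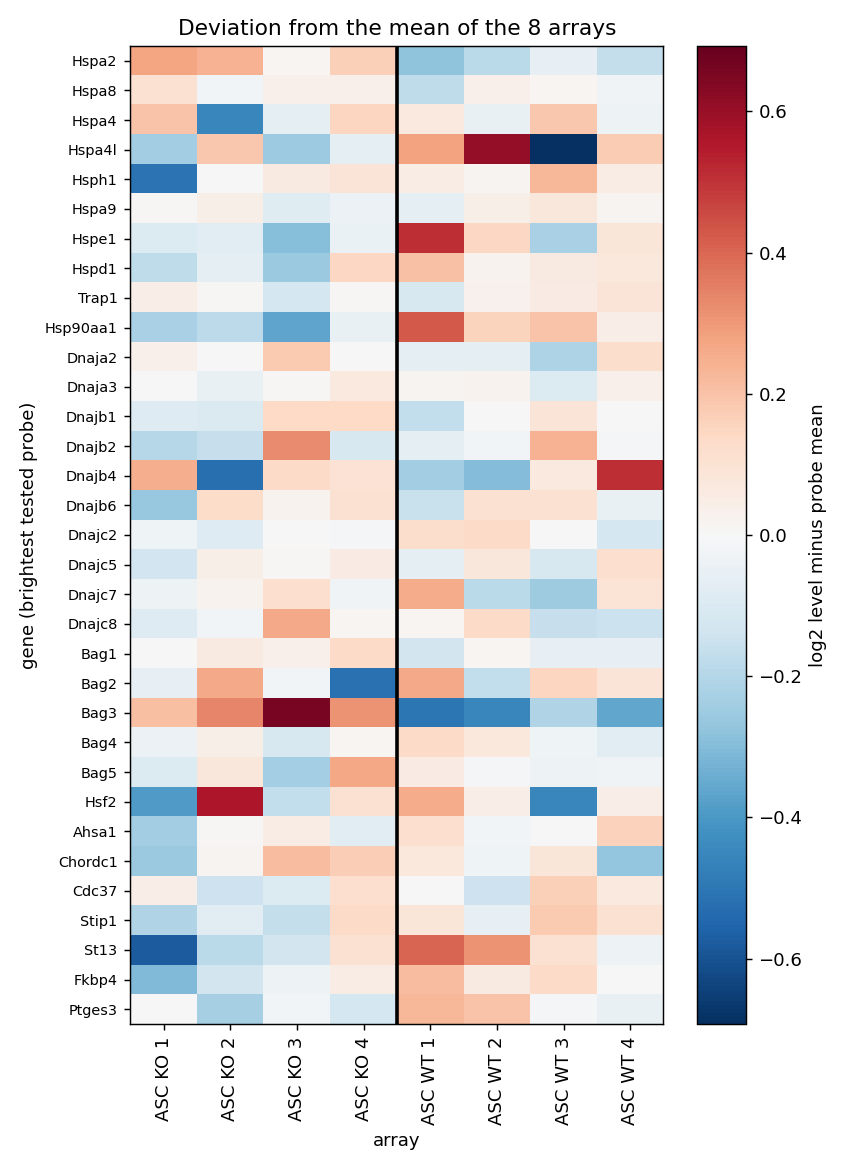
Log2 level of 33 tested chaperone genes at their brightest probe on each array, as the deviation from the mean of the 8 arrays (red above, blue below), with ASC KO left of the line and ASC WT right of it. Bag3 and Hspa2 lie above the mean on every ASC KO array and below it on every ASC WT array, Hsp90aa1 shows the opposite, and ASC KO replicate 1 holds the lowest ASC KO values for 14 of the 33 genes, Hsph1, St13 and Fkbp4 among them.

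The rest of the chaperone network held no call. Of 55 further genes 40 were tested, and 0 were called higher or lower by limma, where 1.13% of all tested genes were called. Of the 40 differences, 14 lay above 0 and 26 below, with a median of -0.04. Counting genes with any probe at an unadjusted limma p under 0.05, 1 gene was higher and 4 were lower. The share over the array was taken by probe and not by gene, and was 13% of all probes. TRiC, the cytosolic chaperonin for actin and tubulin, had all 8 subunits tested, with brightest probes between -0.11 (Cct3) and 0.05 (Cct7). Its partner prefoldin had 4 of 6 subunits tested, between -0.16 (Pfdn2) and 0.19 (Pfdn1). The smallest p belonged to Nudc, an HSP90 co-chaperone of dynein, at -0.38 ± 0.105 at probe ILMN_1249749 (limma adjusted p = 0.143) and -0.08 ± 0.0742 at a brighter probe. Tomm34 was at -0.24 ± 0.0872 at probe ILMN_2441635 and -0.13 ± 0.0733 at a brighter one. Aarsd1 was at -0.23 ± 0.104 and a dimmer Cct3 probe at -0.23 ± 0.1. Gak, a clathrin-uncoating J protein kinase, was at 0.19 ± 0.0823 and Sgta at 0.36 ± 0.165 (SE, n = 4 per group for each).

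Some other gene lists differed between the groups, and their part in the Bag3 and Hspa2 results was not tested. The summed levels of immediate early genes, of CD4 and regulatory T cell markers and of NK cell markers did not overlap between groups. Those of the myeloid, B cell, erythroid and platelet, and CD8 T cell lists did. Of all tested genes, 1.13% were called, 0.619% as higher and 0.516% as lower, which stands beside each count of called markers below. The CD8 T cell list had 6 of 8 markers tested and 0 called, with a median difference of -0.02. Of 18 immediate early genes 15 were tested, 13 had differences above 0, and 3 were called higher: Fos, Fosb and Dusp1. Below 0, and not called, were Ier2 at -0.35 and Egr3 at -0.18. The summed linear level of the immediate early list was 22119 to 28604 in ASC KO, against 16404 to 19600 in ASC WT. The list for CD4 and regulatory T cells had 8 of 10 markers tested, 6 of them above 0. Foxp3 was called higher at probe ILMN_2635132 (limma adjusted p = 0.00576). Its dimmer probe ILMN_2917180 was at 1.01 and not called (limma adjusted p = 0.103), and its probe ILMN_1225330 was detected on 0 arrays. Ikzf2 at -0.22 and Zbtb7b at -0.0045 were below 0. The summed linear level of the 8 tested markers was 7415 to 8839 in ASC KO, against 5376 to 5871 in ASC WT. Ctla4, Tnfrsf4, Tnfrsf18 and Gata3 carried most of that sum. Mean log2 levels were 11.44 in ASC KO and 10.80 in ASC WT for Ctla4, and 6.94 and 5.85 for Foxp3. Cd40lg was detected on 0 of 8 arrays and Cd4 on 1. Of the myeloid list 5 of 14 genes were tested and 0 called, with a summed level of 2137 to 3885 in ASC KO, against 2288 to 3329 in ASC WT, and Itgam detected on 0 arrays. In that list S100a9 was at 1.08 ± 0.329 (limma adjusted p = 0.187) and S100a8 at 0.83 ± 0.32 (limma adjusted p = 0.301), neither called, while Lyz1 and Lyz2 had differences below 0. Of the B cell list 2 of 10 were tested and 0 called (129 to 240 in ASC KO, 117 to 176 in ASC WT), with Cd79a and Ms4a1 detected on 0 arrays. Of 8 NK cell markers 5 were tested and 0 called (713 to 839 in ASC KO, 590 to 704 in ASC WT), with Ncr1 detected on 0 arrays. Of 10 erythroid and platelet markers only Hba-a1 was tested, and it was not called (93.7 to 237 in ASC KO, 55.9 to 121 in ASC WT), with Alas2 and Pf4 detected on 0 arrays.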

How the data were processed

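Per the labels' protocols, RNA was column-purified, DNase-treated and amplified to biotinylated cRNA; GenomeStudio is named in the submitters' processing notes, with no version. The deposited intensity table, non-normalized per the file headers, holds 25697 probes, with all signals above 100 and thus no background subtracted. Beside each signal stands a deposited detection p-value. The authors' deposited value table holds log2 values; they matched quantile-normalized signals centred on each probe's median within 0.0021, with column medians of -0.00045 to 0.00053. No header states this scale and centring; they rest on that match.

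The signals went through limma's nec (background from the detection p-values, offset 16), quantile normalization and log2. After the detection filter (p under 0.05, 4 or more arrays), 11270 probes were fitted with lmFit and eBayes (R 4.3.3, limma 3.58.1), and p-values were adjusted by Benjamini-Hochberg over all of them with 0.05 as threshold. A gene with any passing probe counted as called; its brightest tested probe gave its place in counts and medians. Symbols came from the platform annotation, which named 23978 probes with 1 gene each. They were brought up to date by Entrez identifier from RefSeq genes (GRCm38.p6). The positions of these RefSeq genes gave the chromosome, the gene order and the 20 Mb distance from Pycard. A fold for a group without detection is a bound, using per array the higher of the lowest detected level and the probe's own.

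The members and the gene lists, their roles and the heat-inducible subset were chosen with earlier results of these data known. Named were Pycard, every called member, members with an unadjusted p under 0.05, 12 chaperones whatever their result, and the 6 further chaperone genes with the smallest p; other members stand in their groups. The number of arrays limits the precision, with a median standard error of 0.109. The code was tested on simulated arrays. Alternatives changed background, normalization, filter, value source, variance model, weights, block and replicates.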

Additional observations from a re-analysis of the deposited data

Results flagged for a closer look

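Hsph1, which encodes a heat-inducible HSP110, was the 1 named gene with an array far from its group, and this held in each group. The measure was an array's gap to its nearest neighbour, divided by the range of its group of 4, set against Dixon's 95% critical value. ASC KO replicate 1 was at 10.25, against 10.76 to 10.85 on the other ASC KO arrays. ASC WT replicate 3 was at 10.99, against 10.78 to 10.81 on the other ASC WT arrays. This was computed for 40 sets of 4 arrays, of which 2 stood out, and about 1 in 20 would do so by chance.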

How the results depend on the processing

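With 4 arrays a group, calls near the threshold moved with the settings. The count of members called higher, 2 as reported, was 1 without a detection filter, with an intensity trend and with the replicate number as a block (replicate block), Bag3 in each case, and 0 to 2 when 1 array was left out. It was 0 without ASC WT replicate 2, 2 without ASC KO replicate 3 and 1 in the other 6 fits. The count called lower, 0 as reported, was 2 without background correction and with the authors' value table (Hsp90aa1 and Hspd1 probe ILMN_2639036) and 1 with an intensity trend (Hsp90aa1), and 0 in every fit without 1 array. The Hspd1 calls lay at the threshold. Its limma adjusted p rounded to 0.05 without background correction and was 0.0499 with the authors' value table. The Bag3 difference ranged from 0.67 to 0.82 over all alternatives. Hspa8 at ILMN_2918479 turned to -0.012 under median scaling, -0.050 without ASC KO replicate 4 and -0.043 without ASC WT replicate 2 (up to 0.086 without other arrays), and Dnajb1 to -0.0052 without ASC WT replicate 1 (up to 0.085); none of these was called. Other chaperones stayed at 0 calls throughout, and Pycard kept its direction and call in the 16 fits that tested it, at -4.16 to -1.98. Over all genes, the 48 higher and 40 lower became 112 and 88 without background correction, 96 and 70 at an offset of 50, 135 and 94 with a trend, 30 and 26 without the filter, 26 and 20 with the block, and 15 to 38 and 15 to 32 without 1 array. Same-numbered samples did not deviate together in every pair (correlations of 0.014, 0.107, 0.132 and -0.0999). The correlations of other pairs ran from -0.155 to 0.121. With 4 samples a group, this check cannot tell whether same-numbered samples share more than a number. The dimmer Hspa2 probe lost its call under the block (limma adjusted p = 0.0652). The dimmer Hspa2 probe lies near background, and the size of its difference moved with the background step. It was 0.54 as reported at an offset of 16, 0.34 at an offset of 50 and 0.19 without background correction. Beyond the construction of each alternative, the cause of these shifts was not tested.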
